A study of Mus musculus with 10 samples.

Results

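The VEGF and angiopoietin system was followed here through 10 genes, the ligands Vegfa, Vegfb, Vegfc, Vegfd, Angpt1 and Angpt2 and the receptors Kdr, Flt1, Flt4 and Tek, which are 10 of the 14854 genes listed for each library. The members were named by family, and each was found by the single Ensembl identifier that maps to its symbol. All 10 passed a filter on low values, a log2 level of at least 6 in at least 2 libraries, as did 14177 genes in all.

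RNA-seq was done on cells of adult mouse lung mesenchyme sorted by FACS, in 10 libraries that form 5 lineages of 2. The Axin2:Pdgfra, Axin2, Pdgfra and Negative groups came from mice of the genotype Axin2CreERT2:tdT:PdgfraEGFP and were marked by tdT with GFP, by tdT alone, by GFP alone and by neither. The Wnt2 group came from Wnt2CreERT2:R26REFYP mice, so lineage and mouse line cannot be told apart for it. CreERT2 is a recombinase that acts only after tamoxifen, so the tdT and R26R labels mark cells in which the driver gene was active at that time, and their descendants, whereas EGFP follows current Pdgfra. The labels give the Negative libraries the numbers 0 and 2 and the others 1 and 2, and leave unsaid whether the libraries of a lineage are from different mice; a p-value here reflects only the spread among these libraries, which may be technical in the lineages other than Negative and Wnt2, whose libraries differed in the female transcript Xist (log2 17.04 and 7.81 in Wnt2, and 17.72 and 8.57 in Negative). Pdgfra library 1 is titled EGFP and was placed in the Pdgfra lineage by its GFP label, which the library titled Pdgfra shares.

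VEGF-A binds the receptor tyrosine kinases FLT1 (VEGFR1) and KDR (VEGFR2) on blood endothelium, and KDR carries most of its growth and permeability signal. VEGF-C and VEGF-D bind FLT4 (VEGFR3), the main receptor of lymphatic endothelium. Angiopoietin-1 from perivascular and stromal cells activates the endothelial receptor TIE2, encoded by Tek, and angiopoietin-2 from endothelium can oppose it. In the lung, alveolar type 1 epithelium is a known source of VEGF-A for the capillary bed, and Vegfd has long been described in fibroblasts.

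The level of each gene is a log2 value as deposited by the authors. Whether it was corrected for gene length is not stated, so levels were compared between libraries for 1 gene and not between genes. The tables hold no counts and the depth behind each value is unknown. The lowest value of a library was shared by 310 to 2728 genes (2.1% to 18.4%). Spearman correlations between libraries were 0.778 to 0.929 within a lineage (5 pairs) and 0.671 to 0.885 between lineages (40 pairs). Pdgfra itself had log2 levels of 14.64 to 16.25 in the Axin2:Pdgfra, Pdgfra and Wnt2 libraries and 12 to 13.49 in the Axin2 and Negative libraries. Axin2 (9.54 to 12.04) and Wnt2 (7.68 to 10.82) did not separate the libraries by their labels, and Wnt2 was 9.67 and 10.04 in the Wnt2 libraries. Xist and the Y-linked Ddx3y differed between the Wnt2 libraries and between the Negative libraries, with Xist at 7.81 in Wnt2 library 2 and 8.57 in Negative library 2 against 16.68 to 17.72 in the other 8. In bulk samples such as these, fewer cells of a type and less RNA per cell cannot be told apart.

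The promoters of the ligand genes Vegfd and Vegfa and the receptor genes Flt1 and Tek are shown because the lineage differences described next turn on them. Each is the 250 bases before the start site in the RefSeq promoter table, the first of 2 entries for Vegfa, build GRCm38.p6, written 5′ to 3′ on the gene's strand: Vegfd at chrX:164373272-164373521 (plus strand), Vegfa at chr17:46032378-46032627 (minus strand), Flt1 at chr5:147726012-147726261 (minus strand) and Tek at chr4:94739039-94739288 (plus strand). By the gene coordinates of the same build, the Flt1 window and most of the Tek window lie inside the gene, past its outermost start. Capitals mark matches to the ETS core GGAAG or to the TATA motif, spelled out after the sequences, with the reverse complement in capitals where the match is on the opposite strand.
Vegfd: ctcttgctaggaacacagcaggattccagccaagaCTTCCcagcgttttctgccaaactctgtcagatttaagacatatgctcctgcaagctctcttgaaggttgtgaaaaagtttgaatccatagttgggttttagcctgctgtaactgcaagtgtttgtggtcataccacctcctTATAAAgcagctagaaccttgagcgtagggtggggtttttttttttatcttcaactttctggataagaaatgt
Vegfa: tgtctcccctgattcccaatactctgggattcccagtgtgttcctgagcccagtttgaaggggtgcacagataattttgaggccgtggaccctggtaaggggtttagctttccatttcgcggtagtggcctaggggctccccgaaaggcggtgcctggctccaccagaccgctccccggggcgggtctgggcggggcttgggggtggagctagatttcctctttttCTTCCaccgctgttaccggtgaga
Flt1: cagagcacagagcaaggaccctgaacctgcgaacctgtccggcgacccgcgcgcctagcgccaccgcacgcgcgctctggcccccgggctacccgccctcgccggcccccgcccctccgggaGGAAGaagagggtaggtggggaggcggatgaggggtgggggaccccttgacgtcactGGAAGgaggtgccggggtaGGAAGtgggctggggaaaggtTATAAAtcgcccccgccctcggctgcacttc
Tek: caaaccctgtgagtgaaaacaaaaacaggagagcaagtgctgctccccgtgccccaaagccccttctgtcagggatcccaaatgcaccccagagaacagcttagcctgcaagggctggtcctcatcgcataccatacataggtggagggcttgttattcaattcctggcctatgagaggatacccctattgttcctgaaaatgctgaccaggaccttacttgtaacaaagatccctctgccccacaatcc

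Of the 10 members, 8 had an entry in that table, and 4 motifs were searched on both strands of their 250 bases. GGAAG, the core bound by ETS factors, was in 5 of the 8 (Vegfa, Vegfd, Kdr, Flt1 and Flt4), with 3 copies in the Flt1 window, and in 64.1% of all 32851 promoters of this length. The TATA motif, TATAAA, was in 2 of the 8, Vegfd and Flt1, and in 12.4% of all. ACGTG, a form of the hypoxia-inducible factor core RCGTG (R is A or G), was in 0 of the 8 and in 16.6% of all. The form GCGTG was not searched, and neither were bases outside the window, so a lack of such sites is not shown. The AP-1 motif TGANTCA was in 0 of the 8 and in 6.7% of all. No 2 matches overlapped.

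Vegfd, the VEGF-D ligand gene, was high in the lineages with the Pdgfra label and in Wnt2 cells and low in Negative cells. It was listed at 14.27 and 14.29 in Axin2:Pdgfra, 12.98 and 12.06 in Axin2, 13.7 and 13.79 in Pdgfra, 14.63 and 14.6 in Wnt2, and 10.86 and 11.28 in Negative libraries, all log2 levels. From highest to lowest, the lineage means ran Wnt2, Axin2:Pdgfra, Pdgfra, Axin2 and Negative, and the libraries of these 5 lineages did not overlap. In an F-test across the 5 lineages (limma, Benjamini-Hochberg adjustment over all 14177 genes tested), Vegfd had an adjusted p of 0.000142. Vegfd was 1 of 5 members past the threshold of 0.05 in that test, beside Vegfa, Angpt1, Flt1 and Tek, where 8.2% of all genes tested passed.

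The comparison of the Pdgfra label set the mean of Axin2:Pdgfra and Pdgfra against the mean of Axin2 and Negative. Vegfd averaged 14.01 with the label and 11.8 without it, a log2 difference of 2.21 ± 0.24 (SE, 95% interval 1.69 to 2.74, adjusted p = 9.34e-05). It was the only member past the threshold, 1 of 10 higher and 0 lower, against 6.48% of all genes called in either direction and 3.55% called higher. Leaving out any 1 library gave differences of 1.99 to 2.44, each past the threshold. With the Axin2 label absent on both sides, Pdgfra minus Negative was 2.67 ± 0.35 (adjusted p = 0.00107). With the Axin2 label present on both sides, Axin2:Pdgfra minus Axin2 was 1.76 ± 0.35 (adjusted p = 0.0159), and this call was lost without Axin2 library 2 (1.3, adjusted p = 0.203) and without either Axin2:Pdgfra library (adjusted p = 0.0691 and 0.0938).

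Vegfd was also higher in Wnt2 cells than in Negative cells by 3.54 ± 0.35 (adjusted p = 7.79e-05) and than in Axin2 cells by 2.09 ± 0.35 (adjusted p = 0.00329; 1.64 and 0.072 without Axin2 library 2). Wnt2 averaged 14.61 and the mean of the other 4 lineages was 12.9, a difference of 1.71 ± 0.27 (adjusted p = 0.00447), which missed the threshold when either Wnt2 library was left out (0.115 and 0.0937). The neighbours in the order did not pass: Wnt2 minus Axin2:Pdgfra was 0.33 (adjusted p = 0.732), Axin2:Pdgfra minus Pdgfra was 0.54 ± 0.35 (interval -0.2 to 1.28, adjusted p = 0.538), Axin2 minus Pdgfra was -1.22 (adjusted p = 0.0866) and Axin2 minus Negative was 1.45 ± 0.35 (adjusted p = 0.0748). Vegfd lies on the X chromosome. Its levels were 14.63 and 14.6 in the Wnt2 libraries and averaged 11.07 ± 0.29 (SD) in the Negative libraries, the lineages whose libraries differed in Xist. Ddx3y was 8.15 and 11.48 in the Wnt2 libraries, so both held Y-linked RNA, and 1.79 and 10.74 in the Negative libraries. The part of sex in the Vegfd levels was not tested.

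Fibroblast markers were also higher with the Pdgfra label. The log2 of the summed level of 13 alveolar fibroblast markers was 19.12 to 19.16 in Axin2:Pdgfra, 17.98 to 18.05 in Axin2, 18.81 to 19.05 in Pdgfra, 19.82 to 20.15 in Wnt2 and 17.85 to 17.95 in Negative libraries. Of the 13, 6 were higher with the Pdgfra label and 0 lower, and 4 were higher in Wnt2 than in the mean of the other lineages and 0 lower. Over all genes, 3.55% were called higher with the Pdgfra label and 0.719% higher in Wnt2. The marker lists were chosen with earlier results of these data known, so these counts are not an independent test. Macf1, in the list of 13 and named here only after its values were seen, had an F of 113 and its highest mean in Wnt2. None of the 13 was at the lowest value of a library. Of 12 adventitial fibroblast markers, 9 were higher with the Pdgfra label and 0 lower, with a median of 2.37, but 0 were higher and 8 lower in Wnt2 than in the other lineages. Their log2 summed level was 17.15 to 17.48 in Axin2:Pdgfra, 15.49 to 15.55 in Axin2, 16.17 to 16.95 in Pdgfra, 14.53 to 14.83 in Wnt2 and 14.79 to 15.39 in Negative libraries, with 1 of the 12 at the lowest value in Negative library 2. Of 8 dissociation genes, which rise when tissue is dispersed, 7 were higher with the Pdgfra label and 0 lower, with a log2 summed level of 18.48 to 18.53 in Axin2:Pdgfra, 17.44 to 17.47 in Axin2, 18.41 in both Pdgfra libraries, 17.75 to 17.94 in Wnt2 and 17.15 to 17.39 in Negative libraries. The part of these lists in the Vegfd result was not tested.

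Vegfa, the main angiogenic ligand gene, had another order, with the Negative libraries at the top. It was listed at 13.57 and 13.37 in Axin2:Pdgfra, 13.2 and 12.3 in Axin2, 14.92 and 14.12 in Pdgfra, 13.79 and 13.87 in Wnt2, and 15.73 and 15.37 in Negative libraries. From highest to lowest, the order of the lineage means was Negative, Pdgfra, Wnt2, Axin2:Pdgfra and Axin2, and no libraries of different lineages overlapped. The F-test gave an adjusted p of 0.00134. Vegfa was lower than in Negative cells in 3 lineages, with log2 differences of -2.07 ± 0.34 for Axin2:Pdgfra (adjusted p = 0.00227), -2.8 ± 0.34 for Axin2 (adjusted p = 0.00698) and -1.72 ± 0.34 for Wnt2 (adjusted p = 0.00903). Pdgfra minus Negative was -1.03 ± 0.34 (adjusted p = 0.131). The Axin2 call ended without Axin2 library 2 (-2.35, adjusted p = 0.157), and the Wnt2 call without either Wnt2 library (adjusted p = 0.0874 and 0.0566).

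Across the Axin2 label, the mean of Axin2:Pdgfra and Axin2 was set against the mean of Pdgfra and Negative. Vegfa averaged 13.11 with the label and 15.03 without it, a difference of -1.92 ± 0.24 (interval -2.44 to -1.4, adjusted p = 0.00325). The adjusted p was 0.0512 without Pdgfra library 1. Vegfa was 1 of 3 members lower with the Axin2 label, beside Flt1 and Tek, and 0 were higher, where 1.64% of all genes were called in either direction and 1.14% lower. The median difference of the 10 members was -1.32, against 0.07 over all genes tested, and 8 of the 10, of both signs, had an unadjusted p under 0.05, against 2478 of the 14177 genes. Of those 8, Vegfd (0.99), Angpt1 (0.94) and Angpt2 (1.56) had positive differences and did not pass after adjustment. Between the lineages with 1 label each, Axin2 minus Pdgfra was -1.77 ± 0.34 (adjusted p = 0.0168), lost without Axin2 library 2 (-1.32, adjusted p = 0.227) or Pdgfra library 1 (-1.37, adjusted p = 0.223). The Pdgfra label as a main effect gave -0.15 ± 0.24 for Vegfa (interval -0.67 to 0.37, adjusted p = 0.78).

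Alveolar type 1 markers were highest in the same Negative libraries. The log2 of their summed level over 11 genes was 14.7 to 14.71 in Axin2:Pdgfra, 15.3 to 15.97 in Axin2, 15.67 to 16.69 in Pdgfra, 14.66 to 15.57 in Wnt2 and 18.68 to 18.83 in Negative libraries. Of the 11, 9 were lower with the Axin2 label and 9 lower with the Pdgfra label, and none was at the lowest value of a library. Over all genes, 1.64% and 6.48% were called in either direction for these labels. Ager, which encodes the type 1 cell marker RAGE, was 10.54 to 12.97 in the 8 labelled libraries and 15.77 and 15.32 in the Negative libraries. Alveolar type 2 markers had a log2 summed level over 8 genes of 14.57 to 14.87 in Axin2:Pdgfra, 14.66 to 15.34 in Axin2, 15.99 to 16.78 in Pdgfra, 14.46 to 15.19 in Wnt2 and 16.05 to 17.09 in Negative libraries, and 3 of the 8 were lower with the Axin2 label. Pan-epithelial markers (2 of 6 tested lower with that label) had a summed level of 8.48 to 12.37 in the 8 labelled libraries and 14.43 to 15.33 in the Negative libraries. Erythroid markers (3 of 4 lower) had 6.91 to 11.19 in the 8 labelled libraries and 15.9 to 16.31 in the Negative libraries. Up to 2 pan-epithelial genes and 1 erythroid gene were at the lowest value of a library, and 0 type 2 genes. The part of these lists in the Vegfa levels was not tested. Between the Axin2 and Axin2:Pdgfra libraries the orders differed: the type 1 markers were higher in both Axin2 libraries, and Vegfa was higher in both Axin2:Pdgfra libraries.

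**Figure D1:**
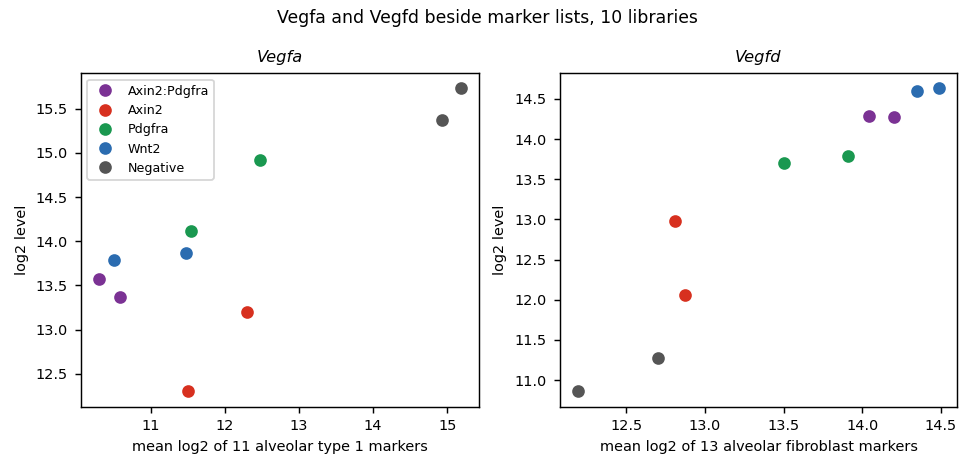
Log2 level of Vegfa against the mean log2 level of 11 alveolar type 1 markers, and of Vegfd against that of 13 alveolar fibroblast markers, 1 point per library and coloured by lineage. Both Negative libraries lie at the top right for Vegfa and at the bottom left for Vegfd, and the Wnt2 libraries lie at the top right for Vegfd.

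Vegfc, the ligand gene of lymphatic growth, was listed at 7.09 and 6.6 in Axin2:Pdgfra, 6.85 and 6.43 in Axin2, 10.39 and 9.37 in Pdgfra, 8.73 and 7.73 in Wnt2, and 8.75 and 2.67 in Negative libraries, the last being the lowest value of its library. The Pdgfra libraries lay above all others and the Negative libraries spanned the rest. The F-test did not pass (adjusted p = 0.406), and Pdgfra minus Negative was 4.17 ± 1.73 (adjusted p = 0.222), with 9.88 ± 0.72 in Pdgfra and 5.71 ± 4.3 in Negative (SD, n = 2 each). Vegfb, whose product binds FLT1, had lineage means between 8.4 ± 0.76 in Pdgfra and 10.38 ± 0.9 in Axin2:Pdgfra, libraries from 7.86 to 11.02 and an F-test adjusted p of 0.399.

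Angpt1, the TIE2 agonist gene, was highest in Wnt2 cells, at 14.24 and 14.07. It was listed at 12.94 and 12.09 in Axin2:Pdgfra, 12.76 and 12.92 in Axin2, 11.59 and 12.64 in Pdgfra, and 12.15 and 10.56 in Negative libraries. Both Wnt2 libraries lay above the other 8, whose lineages overlapped in part. Wnt2 averaged 14.16 and the other 4 lineages 12.21, a difference of 1.95 ± 0.41 (interval 1.08 to 2.82, adjusted p = 0.0226). Angpt1 and Vegfd were the members higher in that comparison, 2 of 10 with 0 lower, where 2.16% of all genes were called in either direction and 0.719% higher. Against Negative alone, the Wnt2 difference was 2.8 ± 0.51 (adjusted p = 0.00563), with 14.16 ± 0.12 in Wnt2 and 11.36 ± 1.12 in Negative (SD, n = 2 each). The comparison with the other 4 lineages missed the threshold when any of 5 libraries was left out, with adjusted p of 0.345 and 0.229 after omission of Wnt2 library 1 or 2, 0.05 and 0.052 after omission of Axin2 library 1 or 2, and 0.0537 after omission of Pdgfra library 1. The F-test (adjusted p = 0.0263) was lost without the same 5 libraries, and Wnt2 minus Negative without Wnt2 library 1 (0.0703).

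Angpt2, the context-dependent TIE2 ligand gene, was listed at 12.09 and 10.61 in Axin2:Pdgfra, 11.17 and 12.14 in Axin2, 10.28 and 11.33 in Pdgfra, 10.94 and 8.67 in Wnt2, and 9.93 and 8.26 in Negative libraries. The Negative libraries lay below those of Axin2:Pdgfra, Axin2 and Pdgfra, the Axin2 libraries also lay above both Wnt2 libraries, and the other lineages overlapped. The F-test gave an adjusted p of 0.207. The largest of the lineage differences, Axin2 minus Negative, was 2.56 ± 0.86 (adjusted p = 0.182).

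**Figure D2:**
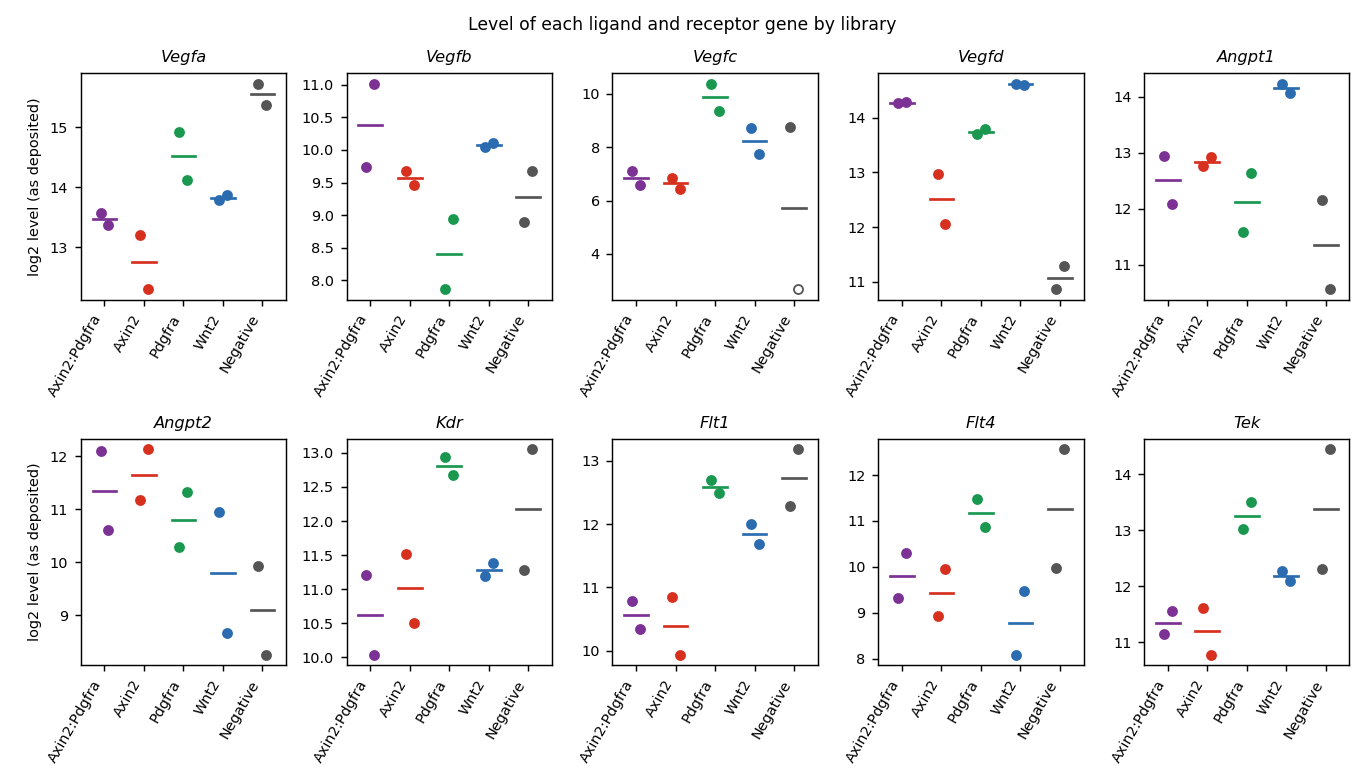
Log2 level as deposited of each of the 10 genes, with 1 point per library, a bar at the mean of the 2 libraries of a lineage and an open circle where a library is at its lowest value; each panel has its own axis. Vegfd is lowest and Vegfa highest in Negative, Angpt1 is highest in Wnt2, and Flt1 and Tek lie lower in Axin2:Pdgfra and Axin2 than in Pdgfra, Wnt2 and Negative.

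Flt1, the gene of VEGFR1, was lower in the lineages with the Axin2 label. It was listed at 10.78 and 10.35 in Axin2:Pdgfra, 10.85 and 9.94 in Axin2, 12.69 and 12.49 in Pdgfra, 12.01 and 11.69 in Wnt2, and 12.28 and 13.19 in Negative libraries. All 4 libraries with the Axin2 label lay below the other 6, while Axin2:Pdgfra overlapped Axin2 and Pdgfra overlapped Negative. Flt1 averaged 10.48 with the Axin2 label and 12.66 without it, a difference of -2.18 ± 0.35 (interval -2.93 to -1.43, adjusted p = 0.0104), lost without Axin2 library 2 (-1.95, adjusted p = 0.0726) or Pdgfra library 1 (-2.13, adjusted p = 0.109). The F-test gave an adjusted p of 0.014, and 0.0548 without Pdgfra library 1. Axin2:Pdgfra minus Negative was -2.17 ± 0.5 (adjusted p = 0.0169), and Axin2 minus Pdgfra was -2.19 ± 0.5 (adjusted p = 0.0342). The first was lost without Axin2:Pdgfra library 2 or Negative library 2 (adjusted p = 0.0891 and 0.116) and the second in 6 of 10 omissions of a library, the 2 libraries of each of Axin2, Pdgfra and Wnt2, with adjusted p up to 0.3.

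Tek, the gene of TIE2, was listed at 11.14 and 11.56 in Axin2:Pdgfra, 11.62 and 10.78 in Axin2, 13.02 and 13.5 in Pdgfra, 12.28 and 12.09 in Wnt2, and 12.31 and 14.45 in Negative libraries. As with Flt1, all 4 libraries with the Axin2 label lay below the other 6. Tek averaged 11.28 with the label and 13.32 without it, a difference of -2.04 ± 0.41 (interval -2.91 to -1.17, adjusted p = 0.025). This call was lost in 6 of 10 omissions of a library (either Axin2:Pdgfra or Pdgfra library, Axin2 library 2 or Negative library 2, adjusted p up to 0.145), and the difference was -1.51 without Negative library 2. The F-test (adjusted p = 0.0474) held in 2 of 10 omissions, those of a Negative library. Axin2:Pdgfra minus Negative was -2.03 ± 0.57 (adjusted p = 0.0487) with Negative library 2 and -0.962 (adjusted p = 0.333) without it, and held in 1 of 10 omissions, that of Negative library 0.

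Kdr, the gene of VEGFR2, was listed at 11.21 and 10.04 in Axin2:Pdgfra, 11.52 and 10.51 in Axin2, 12.94 and 12.68 in Pdgfra, 11.19 and 11.38 in Wnt2, and 11.28 and 13.06 in Negative libraries. The Pdgfra libraries lay above all but Negative library 2, and the other lineages overlapped. Neither the F-test (adjusted p = 0.126) nor the Axin2 label (-1.67 ± 0.44, interval -2.61 to -0.74, adjusted p = 0.0674) passed. Flt4, the gene of VEGFR3, ranged from 8.09 in Wnt2 library 1 to 12.57 in Negative library 2, with lineage means of 9.81 ± 0.69 in Axin2:Pdgfra cells, 9.43 ± 0.72 in Axin2 cells, 11.17 ± 0.43 in Pdgfra, 8.78 ± 0.99 in Wnt2 and 11.27 ± 1.84 in Negative (SD, n = 2 each). It passed neither test (F-test adjusted p = 0.214, and -1.6 ± 0.63 with adjusted p = 0.208 for the Axin2 label). No receptor gene passed for the Pdgfra label, where the differences of Kdr, Flt1 and Tek were 0.12 ± 0.44, 0.01 ± 0.35 and 0.01 ± 0.41.

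**Figure D3:**
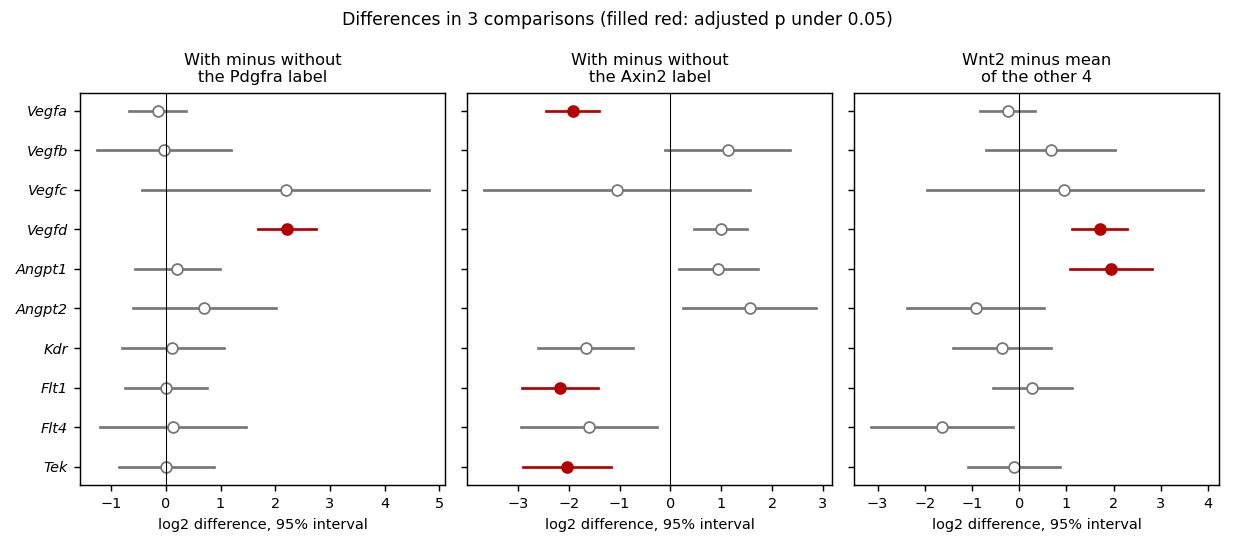
Log2 differences of the 10 genes with their 95% intervals for the Pdgfra label, the Axin2 label and Wnt2 against the mean of the other 4 lineages, filled red where the adjusted p is under 0.05. Vegfd passes for the Pdgfra label, Vegfa, Flt1 and Tek pass on the lower side for the Axin2 label, and Vegfd and Angpt1 pass on the higher side for Wnt2.

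Endothelial markers were present in every library, and, like Flt1 and Tek, had genes that were lower with the Axin2 label. None of the 18 was at the lowest value in any library. The log2 of their summed level was 15.23 to 15.29 in Axin2:Pdgfra, 16.01 to 16.19 in Axin2, 16.83 to 16.95 in Pdgfra, 15.41 to 15.73 in Wnt2 and 16.44 to 17.48 in Negative libraries. Of the 18, 5 were lower with the Axin2 label and 0 higher, with a median difference of -1.63, where 1.14% of all genes were called lower. In Wnt2 libraries the summed level was below that of the Axin2 libraries, whereas both Wnt2 libraries lay above both Axin2 libraries for Flt1 and Tek. By the mean log2 level of the 18 markers these lineages overlapped, at 9.98 and 10.22 in Wnt2 and 11.01 and 10.2 in Axin2. The 18 markers did not share 1 pattern. Eng, which is in the sum, had its highest mean in Axin2 and its lowest in Wnt2 (F-test adjusted p = 0.00139). Pecam1, the platelet and endothelial adhesion molecule, had 10.92 and 11.47 in Axin2:Pdgfra, 12.53 and 11.7 in Axin2, 13.53 and 13.41 in Pdgfra, 11.76 and 12.23 in Wnt2, and 12.62 and 14.3 in Negative libraries. Its difference for the Axin2 label was -1.81 ± 0.36 (adjusted p = 0.025), and that of Cdh5, the VE-cadherin gene, was -1.75 ± 0.31 (adjusted p = 0.0152). The Cdh5 call ended after omission of Axin2 library 2 or Pdgfra library 1 (adjusted p = 0.101 and 0.139), and the Pecam1 call in 5 of 10 omissions (Axin2:Pdgfra library 1, Axin2 library 2, either Pdgfra library or Negative library 2, adjusted p up to 0.164). Lymphatic markers had mean log2 levels over 5 genes of 4.75 to 7.64 in the 8 labelled libraries and 8.28 to 9.42 in Negative libraries. Up to 3 of these 5 genes were at the lowest value of a labelled library. Only 1 of the 4 tested passed the F-test, Pdpn (adjusted p = 0.0336), so the list mean is a weak measure of lymphatic cells. Pdpn had its highest mean in Negative, where the alveolar type 1 markers were highest too. The part of endothelial cells in the receptor differences was not tested.

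The log2 level of Flt1 minus the mean log2 level of the 18 markers in the same library, a value whose zero has no meaning and which is compared only between libraries, was 0.61 and 1 in Axin2:Pdgfra, -0.15 and -0.26 in Axin2, 1.1 and 0.8 in Pdgfra, 2.03 and 1.47 in Wnt2, and 0.98 and 0.67 in Negative libraries. For Flt1, the Wnt2 libraries were thus the highest and the Axin2 libraries the lowest on this scale, apart from all others. The same value for Tek was 0.62 and 0.58 in Axin2 and 0.97 to 2.3 in the other 8 libraries. Kdr and Flt4 did not share this order. For Kdr it was 0.52 and 0.3 in Axin2, 1.34 and 0.99 in Pdgfra, 1.22 and 1.16 in Wnt2, and -0.02 and 0.55 in Negative. For Flt4 it was -2.08 and -0.26 in Axin2 and -1.89 and -0.74 in Wnt2, and the lineages overlapped. These within-library differences are descriptions, with no test.

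**Figure D4:**
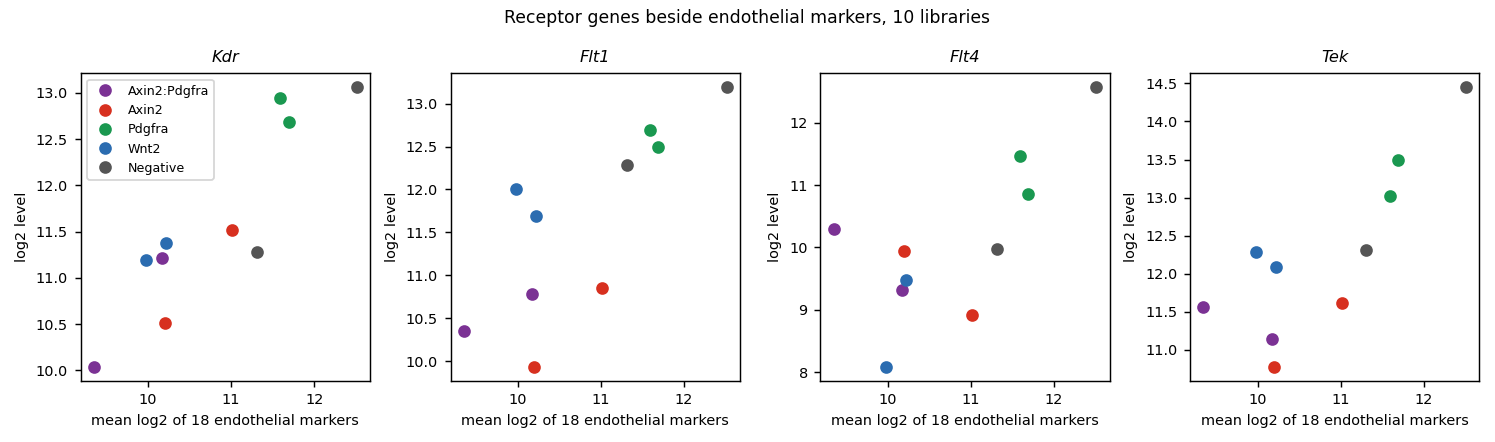
Log2 level of Kdr, Flt1, Flt4 and Tek against the mean log2 level of 18 endothelial markers, 1 point per library and coloured by lineage. Negative library 2 is highest for each receptor gene and for the markers, the Pdgfra libraries lie next for the markers, and the Wnt2 libraries lie above the Axin2 libraries for Flt1 and Tek at a similar or lower marker level.

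Over the 10 pairwise comparisons of lineages, 13 of 100 gene-by-pair tests of the members passed, against 2.57% of all gene-by-pair tests. Vegfd passed in 5 pairs, Vegfa in 4, Flt1 in 2, and Angpt1 and Tek in 1 each. Comparisons that share a lineage share its libraries, so these counts are not independent. The interaction asked whether the Pdgfra label differed by the same amount with and without the Axin2 label. No member passed it (0 of 10 in limma, 1 at an unadjusted p under 0.05), and the share over all genes was 0% (1296 genes at an unadjusted p under 0.05).

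Of 17 further VEGF and angiopoietin pathway genes, 16 were listed and tested, and 5 passed the F-test, which 8.2% of all genes passed: Pgf, Nrp1, Ptprb, Ccbe1 and Svep1. The Pgf F-test (adjusted p = 0.0458) held in 2 of 10 omissions, those of an Axin2:Pdgfra library, with adjusted p up to 0.198, and the Nrp1 F-test (0.0185) was lost without either library of Axin2 or Wnt2, with adjusted p up to 0.125. For the Pdgfra label 3 were higher and 1 lower, for the Axin2 label 0 were higher and 1 lower, and for Wnt2 against the other lineages 2 were higher and 0 lower. Over all genes, 6.48%, 1.64% and 2.16% were called in either direction. The median differences of the 16 were 0.23, -0.09 and 0.37 in these comparisons, against 0, 0.07 and 0.13 over all genes. Tie1, the co-receptor of TIE2, and Nrp2, a co-receptor of VEGF-C, did not pass the F-test (adjusted p = 0.346 and 0.202).

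Pgf encodes placental growth factor, a further ligand of FLT1. It was listed at 6.85 and 2.06 in Axin2:Pdgfra, 11.04 and 11.35 in Axin2, 1.55 and 5.4 in Pdgfra, 1.55 and 4.17 in Wnt2, and 7.8 and 9.35 in Negative libraries, where 2.06 in Axin2:Pdgfra and 1.55 in Pdgfra are the lowest values of their libraries. The Axin2 libraries were the highest, and both Negative libraries lay above the rest. Pgf was lower with the Pdgfra label by a log2 difference of -5.92 ± 1.42 (adjusted p = 0.0221), and that call was lost in 5 of 10 omissions of a library (Axin2:Pdgfra library 2, Axin2 library 1, Axin2 library 2, Pdgfra library 1 and Negative library 2, adjusted p up to 0.0934). With other filters, floors, scaling, moderation, weights or covariates, the Pgf difference ran from -6.24 to -3.67, so its size depends on the processing. Pericyte markers also had Axin2 and Negative at the top, with a log2 summed level over 15 genes of 15.12 to 15.57 in Axin2:Pdgfra, 18.91 to 19.25 in Axin2, 15.73 to 15.75 in Pdgfra, 15.21 to 15.26 in Wnt2 and 17.46 to 18.46 in Negative libraries. Of the 15, 12 were lower with the Pdgfra label and 0 higher, where 6.48% of all genes were called in either direction. Their part in the Pgf result was not tested.

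Svep1 and Ccbe1, like Vegfd, were higher with the Pdgfra label. CCBE1 promotes the proteolytic activation of VEGF-C, and SVEP1 is an extracellular matrix protein needed for lymphatic vessel growth. Svep1 was listed at 14.5 and 14.39 in Axin2:Pdgfra, 13.54 and 13.28 in Axin2, 14.19 and 14.34 in Pdgfra, 14.23 and 14.52 in Wnt2, and 12.55 and 11.88 in Negative libraries. The 6 libraries of the Axin2:Pdgfra, Pdgfra and Wnt2 lineages lay above the other 4. Svep1 was higher with the Pdgfra label by 1.54 ± 0.21 (adjusted p = 0.000593), and leaving out any 1 library gave 1.38 to 1.71, each past the threshold. Ccbe1 was listed at 11.1 and 12.63 in Axin2:Pdgfra, 10.17 and 8.84 in Axin2, 12.34 and 11.72 in Pdgfra, 12.79 and 13.24 in Wnt2, and 9.99 and 8.68 in Negative libraries. It was higher with the Pdgfra label by 2.53 ± 0.47 (adjusted p = 0.00509; 2.15 to 2.91 and past the threshold with any 1 library left out) and in Wnt2 against the other 4 lineages by 2.33 ± 0.53 (adjusted p = 0.034, lost when Axin2 library 2 or either library of Pdgfra or Wnt2 was omitted, adjusted p up to 0.472).

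Nrp1, the gene of a co-receptor that binds VEGF-A, was highest in Wnt2 cells. Its lineage means were 13.02 ± 0.08 in Axin2:Pdgfra cells, 12.34 ± 0.07 in Axin2 cells, 13.35 ± 0.09 in Pdgfra, 13.9 ± 0.06 in Wnt2 and 12.38 ± 0.18 in Negative (SD, n = 2 each). It was higher in Wnt2 than in the other 4 lineages by 1.12 ± 0.25 (adjusted p = 0.0274, lost when either library of Axin2, Pdgfra or Wnt2 was omitted, adjusted p up to 0.394) and higher with the Pdgfra label by 0.82 ± 0.22 (adjusted p = 0.0377, past the threshold without Negative library 0 and in no other of the 10 omissions). Ptprb encodes VE-PTP, a phosphatase that acts on TIE2, and its lineage means were 12.98 ± 0.24 in Axin2:Pdgfra cells, 13.27 ± 0.44 in Axin2 cells, 15.14 ± 0.56 in Pdgfra, 14.24 ± 0.1 in Wnt2 and 14.77 ± 0.86 in Negative (SD, n = 2 each). It was lower with the Axin2 label by a log2 difference of -1.83 ± 0.28 (adjusted p = 0.00823), lost without Axin2 library 2 (0.0717) or Pdgfra library 1 (0.109).

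**Figure D5:**
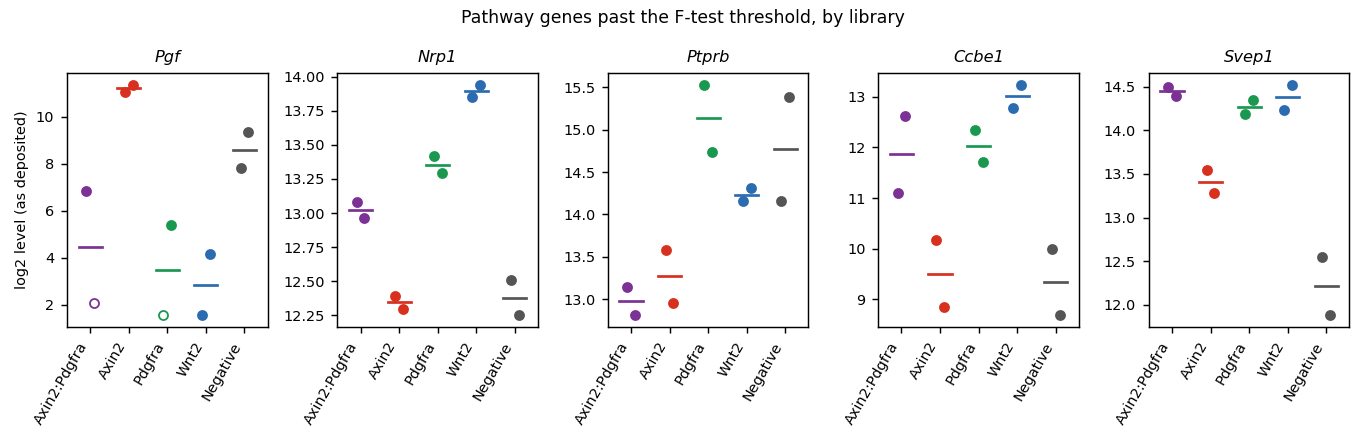
Log2 level as deposited of the 5 further pathway genes past the F-test, with 1 point per library, a bar at the mean of the 2 libraries of a lineage and an open circle where a library is at its lowest value. Pgf is highest in Axin2, Nrp1 in Wnt2, and Svep1 and Ccbe1 lie higher in Axin2:Pdgfra, Pdgfra and Wnt2 than in Axin2 and Negative.

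Among regulators and targets, 1 of 10 tested hypoxia-inducible factors and regulators passed the F-test, a share near the 8.2% of all genes. Epas1, which encodes HIF-2alpha, averaged 13.22 ± 0.07 in Axin2:Pdgfra cells, 15.65 ± 0.29 in Axin2 cells, 15.74 ± 0.26 in Pdgfra, 15.05 ± 0.34 in Wnt2 and 16.21 ± 0.75 in Negative (SD, n = 2 each). It was lower in Axin2:Pdgfra than in Axin2 (-2.43 ± 0.31, adjusted p = 0.0012), Pdgfra (-2.52 ± 0.31, adjusted p = 0.00519) and Negative (-2.99 ± 0.31, adjusted p = 0.000127). The difference from Pdgfra was -2.7 to -2.34 with any 1 library left out, but its call was lost without Pdgfra library 1. Neither lineage with a single label passed against Negative (-0.56 ± 0.31 for Axin2 and -0.47 ± 0.31 for Pdgfra, adjusted p = 0.447 and 0.465). The label main effects, each averaged over both states of the other label, were -1.45 ± 0.22 for Pdgfra (adjusted p = 0.00123) and -1.54 ± 0.22 for Axin2 (adjusted p = 0.00676, and 0.0692 or 0.0854 after omission of Axin2 library 2 or Pdgfra library 1). Of 15 hypoxia-inducible factor targets 1 passed, again near the share over all genes: Adm, the adrenomedullin gene, which was higher with the Pdgfra label by 4.75 ± 0.86 (adjusted p = 0.0042; 3.62 to 5.87 and past the threshold with any 1 library left out). Of 4 angiopoietin-like genes tested, 1 passed, where 8.2% of all genes did. It was Angptl2, with its highest mean in Axin2 (15.04 ± 0.12), and its F-test (adjusted p = 0.0409) held in 2 of 10 omissions, those of a Negative library.

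Of 9 genes that VEGF is known to raise in endothelium, 4 passed the F-test, which 8.2% of all genes passed. Cxcr4, a chemokine receptor gene, averaged 7.27 ± 0.03 in Axin2:Pdgfra cells, 13.56 ± 0.57 in Axin2 cells, 8.23 ± 0.78 in Pdgfra, 8.3 ± 1.9 in Wnt2 and 12.05 ± 0.46 in Negative (SD, n = 2 each). Cxcr4 (-5.05 ± 0.62, adjusted p = 0.000261), Nid2, a basement membrane gene (-3.18 ± 0.65, adjusted p = 0.00849), and Unc5b, a netrin receptor gene (-2.61 ± 0.59, adjusted p = 0.0154), were lower with the Pdgfra label. The Nid2 call ended after omission of Axin2 library 2 (adjusted p = 0.0564), and the Unc5b call after omission of that library (0.108) or either Pdgfra library (0.0594 and 0.0577). Nr4a1, an immediate early nuclear receptor gene, was higher with it (1.82 ± 0.2, adjusted p = 0.000101). The dissociation genes were higher with it too (7 of 8, median 1.25). Of the mural and mesothelial lists, 12 of 15 pericyte markers, 4 of 9 smooth muscle markers and 4 of 5 mesothelial markers were lower with the Pdgfra label and 0 higher, as were Cxcr4, Nid2 and Unc5b. Over all genes, 6.48% were called in either direction for that label. Smooth muscle markers had a log2 summed level of 15.29 to 15.88 in Axin2:Pdgfra, 17.72 to 17.73 in Axin2, 16.08 to 16.17 in Pdgfra, 15.75 to 16.08 in Wnt2 and 15.29 to 16.18 in Negative libraries. By their mean log2 level, the Negative libraries (12.39 and 11.06) lay above those of Pdgfra (10.33 and 10.72) and Wnt2 (9.68 and 8.84). The Axin2:Pdgfra libraries, at 11.62 and 10.16, overlapped the Negative libraries. Mesothelial markers had 8.82 to 9.93 in Axin2:Pdgfra, 12.61 to 12.91 in Axin2, 9.37 to 10.33 in Pdgfra, 8.47 to 10.03 in Wnt2 and 13.56 to 13.6 in Negative libraries. The part of these lists in the 4 results was not tested.

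As a description over the 10 libraries, which share lineages and normalization, genes with a pattern like that of Vegfd included Csnk1a1 (Pearson's r 0.985) and Cpm (0.979), and those most like Vegfa were Lpin2 (0.955), Fnbp1l (0.937) and Mal (0.929). Angpt1 was nearest to Lztfl1 (0.955), Sept7 (0.943) and Picalm (0.939). Flt1 was nearest to Tspan18 (0.963), Mcc (0.959) and Ptprb (0.949), Tek to Sox7 (0.938), Cdh5 (0.93) and mt-Atp8 (0.93), and Kdr to Hpgd (0.953), Cd93 (0.946) and Acaca (0.942). Sox7, Cdh5, Cd93 and Ptprb are known as genes of endothelium. For the other members, the nearest genes were Cpne3, Dis3l and Vav2 for Vegfb (0.937, 0.934 and 0.915), Ylpm1, Ncoa6 and Tnrc6c for Vegfc (0.942, 0.94 and 0.937), Rpl26, Ak4 and Sgf29 for Angpt2 (0.944, 0.929 and 0.904), and Pitpnm2, mt-Tl1 and Ace for Flt4 (0.95, 0.936 and 0.915).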

How the data were processed

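RNA from FACS-sorted adult mouse lung mesenchyme was sequenced in 10 libraries. The submitters' processing notes name the aligner STAR, limma and the mouse build mm9; their versions, the annotation and the read counter are, in the sources used here, not given. The authors deposited 1 log2 value per gene and library; that scale was inferred from the values, which have near-equal distributions in all libraries outside the low range, as after quantile normalization. No counts were used, so depth is unknown.

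The 14177 genes that reached log2 6 in 2 or more libraries entered 1 linear model with a mean per lineage, 10 libraries and 5 residual degrees of freedom, in limma 3.58.1 (lmFit, eBayes with trend and robust) under R 4.3.3. Tests were two-sided, with Benjamini-Hochberg adjustment over all genes of a comparison and a threshold of 0.05. Levels are mean ± SD of 2 libraries, and differences are log2 with their SE. The members and gene lists were chosen with earlier results of these data known.

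Named genes were the 10 members, up to 5 genes per pathway list past the F-test (those with the largest range of lineage means), markers among the 4 highest of their list, and the 3 genes of highest Pearson's r with each member. For Vegfd, 1 of these 3 is not reported here. Tie1, Nrp2, Macf1, Pdpn and Eng were added after their values were seen. Alternatives covered filters, floors, scaling, moderation, weights, covariates and each library left out.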

Additional observations from a re-analysis of the deposited data

Results flagged for a closer look

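Vegfa was singled out because the Pdgfra label went with opposite directions in cells with and without the Axin2 label. Its log2 level was 13.57 and 13.37 in Axin2:Pdgfra libraries against 13.2 and 12.3 in Axin2 libraries, and 14.92 and 14.12 in Pdgfra libraries against 15.73 and 15.37 in Negative libraries. The 2 differences, 0.72 ± 0.34 with the Axin2 label and -1.03 ± 0.34 without it (SE), differed by 1.75 ± 0.48 (95% interval 0.71 to 2.79). In limma the interaction had an unadjusted p of 0.00277 and an adjusted p of 0.375 over all genes, so it did not pass the threshold.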

How the results depend on the processing

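With eBayes without trend and robust, the members past the threshold were 0 in the F-test, 0 for the Axin2 label and 0 for Wnt2 against the other lineages, against 5, 3 and 2 as reported, and the member-by-pair calls were 2 against 13. The member calls held there were Vegfd for the Pdgfra label (adjusted p = 0.0328), Axin2:Pdgfra minus Negative (0.0355) and Wnt2 minus Negative (0.0349). The Pdgfra label calls of Svep1 (0.0693), Ccbe1 (0.0693), Adm (0.0647) and Epas1 (0.11) ended there, as did those of Nid2, Unc5b, Pgf and Nrp1. The Pdgfra label calls of Cxcr4 (0.0183) and Nr4a1 (0.0377) held. Also lost were the Axin2 label calls of Ptprb, Epas1, Pecam1 and Cdh5 and the Wnt2 calls of Ccbe1 and Nrp1 against the other lineages. For Epas1, the call for Axin2:Pdgfra minus Negative held, and those against Axin2 and Pdgfra ended. Over all genes the F-test then called 205 against 1163. The replicate block, the replicate number as a factor, gave 21 member-by-pair calls, and 6, 4, 2 and 1 members for the F-test, the Axin2 label, Wnt2 and the Pdgfra label. It ended the calls of Pgf (adjusted p = 0.0515) and Nrp1 (0.0557) for the Pdgfra label and the Pgf F-test (0.0701). Correlations of same-numbered deviations between lineages, without Negative, were -0.06 to 0.03. They show no shared deviation by number, and cannot tell whether same-numbered libraries came from the same mice.

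Leaving out each library in turn gave 2 to 7 members in the F-test, 1 to 2 for the Pdgfra label, 0 to 6 for the Axin2 label, 0 to 2 for Wnt2, 0 for the interaction and 7 to 25 member-by-pair calls. Without Negative library 0 the counts were the highest, 7, 2, 6 and 25 for the F-test, the Pdgfra label, the Axin2 label and the pairs. Without Pdgfra library 1 the F-test had 2 and the Axin2 label 0, without Axin2 library 2 the Axin2 label had 1 and the pairs 7, and without either Wnt2 library Wnt2 had 0. The cause was not tested. No called difference changed its sign under these alternatives. For a common floor, repeated quantile normalization and the second index as a covariate, the Tek F-test had adjusted p of 0.059, 0.0503 and 0.0728, and the Tek call for Axin2:Pdgfra minus Negative 0.0557, 0.0503 and 0.0511. The second index, given in the labels, also ended the Flt1 call for Axin2 minus Pdgfra (0.0876), and arrayWeights those of Flt1 (0.0593) and Tek (0.0935) for Axin2:Pdgfra minus Negative. The second index further ended the F-tests of Pgf (0.0503) and Angptl2 (0.0771). It also ended the Nrp1 call for the Pdgfra label (0.0633), as did arrayWeights (0.0655) and the fit of the 8 libraries of 1 mouse line (0.0893). The filter at log2 8 ended the Pgf F-test (0.0543), and the common floor that of Angptl2 (0.0533). With no counts in the tables, what depth limits could not be measured.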

Other observations

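Within a library, the difference between the log2 levels of Vegfd and Vegfa, a value that also holds the lengths of both genes, was 0.7 and 0.91 in Axin2:Pdgfra, -0.22 and -0.24 in Axin2, -1.22 and -0.33 in Pdgfra, 0.84 and 0.72 in Wnt2, and -4.86 and -4.09 in Negative libraries. Its zero has no meaning, and between libraries both Negative values lay below the other 8.

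The same difference between Angpt2 and Angpt1 was -0.85 and -1.48 in Axin2:Pdgfra, -1.59 and -0.78 in Axin2, -1.32 and -1.31 in Pdgfra, -3.3 and -5.4 in Wnt2, and -2.22 and -2.31 in Negative libraries. The Wnt2 libraries were the lowest and did not overlap any other lineage. These values are descriptions with no test.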
